A study of Mus musculus with 2 samples.

Results

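The genes described here are 40 genes whose products copy DNA or supply its building blocks, out of 35275 gene identifiers in a deposited table of RNA sequencing counts. They were taken by symbol from a list of named genes, drawn up with earlier results of these data known, and all 40 were found. The study compared mesenchymal stem/progenitor cells (MSPC) of the bone marrow, a stromal population able to form bone, cartilage and fat, between Ptpn11E76K/+ mice (the mutant, 1 library) and Ptpn11+/+ mice (the control, 1 library). The series' design text speaks of 2 replicates, while the labels and the table give 1 sample and 1 column per genotype, and whether a column merges replicates is not stated. Both groups were C57BL/6 mice that carried the Nestin-Cre transgene, which expresses the Cre recombinase from regulatory sequence of the nestin gene, so Cre is present in the control as well. Ptpn11 encodes SHP2, a phosphatase that promotes RAS-ERK signalling, and the mutant allele is an activating one. The cells were sorted as CD45-, Ter-119- and CD31-negative and as CD140- and Sca-1-positive, and polyadenylated RNA was enriched. The sources used here give neither the age of the mice nor whether a library pools animals.

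DNA replication begins when the origin recognition complex (ORC), with CDC6 and CDT1, loads rings of the MCM2-7 helicase onto DNA. The helicase is switched on with CDC45 and the GINS complex, primase starts each strand, polymerases delta and epsilon extend it behind the sliding clamp PCNA, and flap removal and ligation join the fragments. Ribonucleotide reductase, thymidylate synthase and thymidine kinase make the deoxynucleotides that the polymerases use. Many of these genes are transcribed towards the start of S phase by E2F transcription factors, so as a set they mark cells that are dividing.

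The promoters of 5 members are shown as examples of sequence features found in some of the genes. The sequences are from RefSeq (GRCm38.p6), run 5′ to 3′ on the strand of the gene and end at the base before the annotated start. Capitals mark matches to the E2F words TTTCCCGC, TTTCGCGC, TTTGCCGC and TTTGGCGC or to the CCAAT box word CCAAT, which NF-Y binds, read on both strands.
Mcm5 promoter, chr8:75109259-75109508, plus strand: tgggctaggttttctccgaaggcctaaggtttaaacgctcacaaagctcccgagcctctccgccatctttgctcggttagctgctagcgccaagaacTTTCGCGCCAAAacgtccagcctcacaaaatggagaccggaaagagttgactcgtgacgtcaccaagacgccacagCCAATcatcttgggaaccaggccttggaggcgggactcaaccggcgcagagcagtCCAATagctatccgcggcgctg
Mcm6 promoter, chr1:128359706-128359955, minus strand: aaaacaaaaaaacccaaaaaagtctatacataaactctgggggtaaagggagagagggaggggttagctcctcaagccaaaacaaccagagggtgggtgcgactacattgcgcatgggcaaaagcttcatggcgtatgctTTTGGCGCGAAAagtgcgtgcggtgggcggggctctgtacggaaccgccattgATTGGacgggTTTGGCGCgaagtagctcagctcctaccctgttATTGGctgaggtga
Mcm7 promoter, chr5:138171884-138172133, minus strand: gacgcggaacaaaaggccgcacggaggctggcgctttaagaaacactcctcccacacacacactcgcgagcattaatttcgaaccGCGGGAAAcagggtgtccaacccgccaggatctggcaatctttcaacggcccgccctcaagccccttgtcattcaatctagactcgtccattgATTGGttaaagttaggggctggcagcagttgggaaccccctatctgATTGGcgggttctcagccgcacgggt
Rrm2 promoter, chr12:24708004-24708253, plus strand: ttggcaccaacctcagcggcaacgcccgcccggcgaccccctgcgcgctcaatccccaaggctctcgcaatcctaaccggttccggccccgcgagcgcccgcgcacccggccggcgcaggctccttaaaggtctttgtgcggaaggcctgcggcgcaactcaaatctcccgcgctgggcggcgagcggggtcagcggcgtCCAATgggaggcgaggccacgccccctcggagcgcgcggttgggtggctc
Pola1 promoter, chrX:93632156-93632405, minus strand: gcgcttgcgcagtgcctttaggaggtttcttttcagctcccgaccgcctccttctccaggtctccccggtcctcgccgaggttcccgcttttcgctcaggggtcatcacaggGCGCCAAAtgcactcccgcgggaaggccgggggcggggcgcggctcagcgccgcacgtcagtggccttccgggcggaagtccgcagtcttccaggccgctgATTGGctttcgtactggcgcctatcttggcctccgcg

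In the Mcm5 promoter the E2F words TTTCGCGC and GCGCCAAA overlap, at positions -153 to -146 and -149 to -142 from the start, and CCAAT lies at -77 and at -22. It has 1 more CCAAT from 7 to 11 after the start, outside the stretch printed. The Mcm6 promoter has an overlapping pair of the same kind from -110 to -99 and 1 more E2F word from -47 to -40. The Mcm7 promoter has GCGGGAAA from -165 to -158 and a second E2F word from 17 to 24 after the start, outside the stretch printed. The Rrm2 window holds a CCAAT box at -50 and none of the 4 E2F words. The Pola1 window holds 1 E2F word, from -138 to -131, and 1 CCAAT box.

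A promoter was listed for 33 of the 40 members. Over the window from 250 bases before to 50 bases after the most upstream listed start, 13 of these 33 (39.4%) held an E2F word, against 4.19% of the promoters of 9990 measured genes and 2.33% of all 27025 promoters in the table. CCAAT was found in 21 of 33 (63.6%), against 39.2% of measured genes' promoters and 38.0% of all. Both were found in 8 of 33 (24.2%), against 1.87% and 1.02%. The cell cycle homology word TTTGAA, which marks many genes of mitosis, was found in 4 of 33 (12.1%), against 11.9% of measured genes' promoters and 18.2% of all. In a list of mitosis genes an E2F word was found in 1 of 24 promoters (4.17%), TTTGAA in 17 (70.8%) and CCAAT in 20 (83.3%). In a list of G1 and E2F network genes an E2F word was found in 8 of 22 promoters (36.4%), and with CCAAT in 5 (22.7%), shares close to those of the replication genes. These are matches of letters in a window and do not show binding.

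Sequencing depth was 18010963 counts in the mutant library, with 17185 genes detected, and 22328659 counts in the control library, with 17887 detected. Library totals were scaled with TMM factors, and levels in CPM (counts relative to library size) use the scaled totals. A ratio is always the mutant library over the control library, and its 95% interval is the exact Clopper-Pearson one for how a gene's counts divide between the libraries. Genes with 20 or more counts over both libraries are termed measured. Such a gene is called higher (or lower) if all of its interval is past 2-fold. With 1 library per genotype there is no replicate check, no test between genotypes was run, and all intervals cover counting error only.

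In the mutant library the replication genes stood at higher levels almost as a block. Of the 40 members, all were measured, 8 were called higher and 0 lower, against 6.98% of the 13142 measured genes called higher and 8.29% called lower. With a threshold of 1.5-fold, 28 members were higher and 0 lower, against 15.7% and 15.6% of measured genes. For 39 members the whole interval lay above no difference, as for 39.6% of measured genes, and for 1, Pola1, it lay below, as for 37.4%. The ratio itself was above 1 for 39 of 40 members and for 50.1% of measured genes. It was also above 1 for all 30 mitosis genes, 29 of them with the whole interval. Among 32 other replication factors it was above 1 for 31, and the whole interval was for 26. A rise of nearly all genes is therefore not particular to the 40. The median log2 ratio of the members was 0.84, against 0.01 over all measured genes. The members summed to 81737 counts in the mutant library and 57653 in the control library, which is 4701 CPM (95% Poisson interval 4669 to 4733) and 2493 CPM (2472 to 2513), a ratio of 1.886 (1.866 to 1.906).

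**Figure D1:**
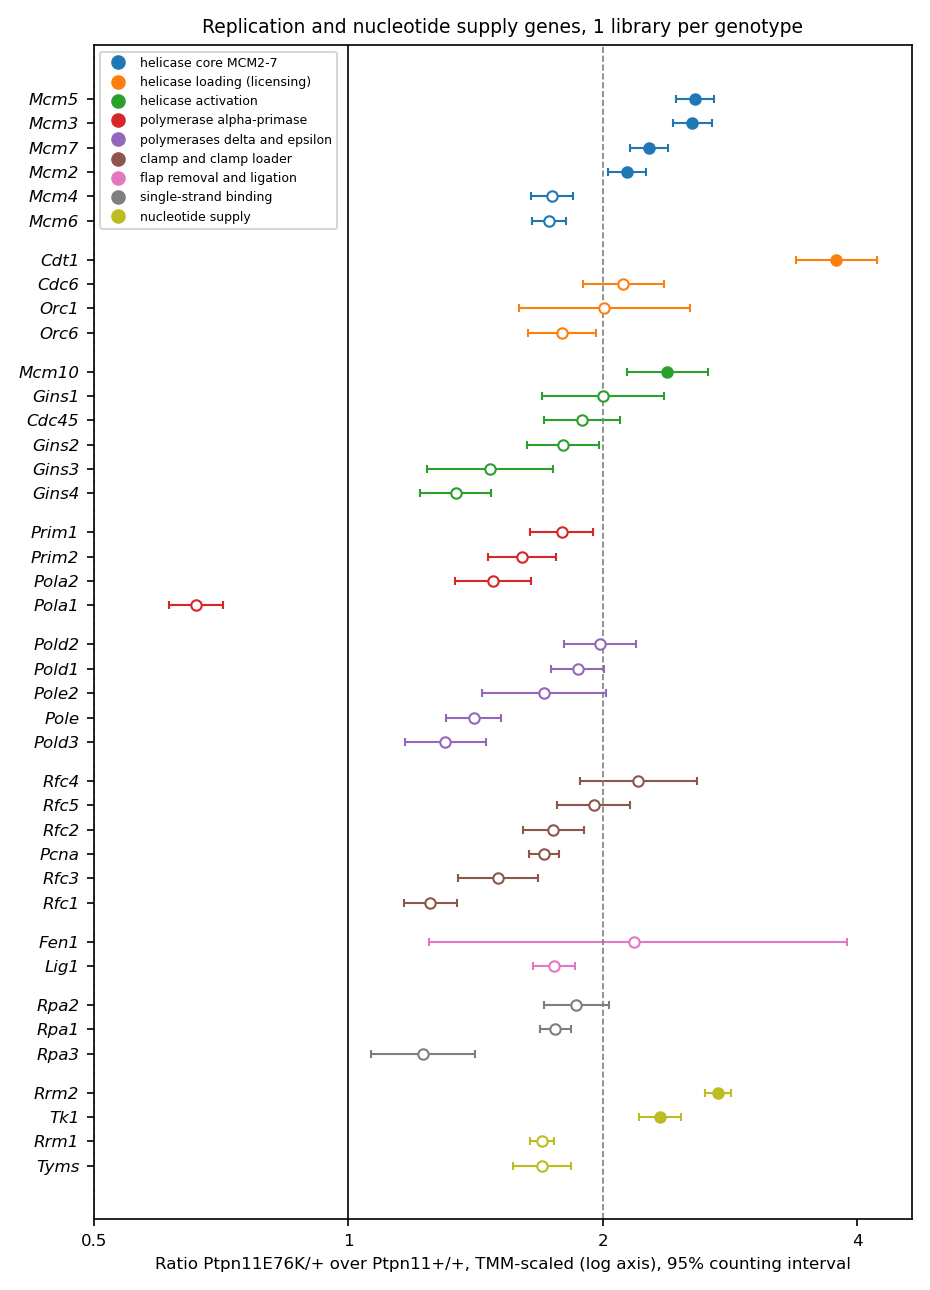
Ratio of the mutant to the control library for each of the 40 genes (log axis), grouped by role, with 95% counting intervals from 1 library per genotype. Filled points are the 8 genes called higher, dashed lines mark 2-fold, and 39 intervals lie above 1 while that of Pola1 lies below.

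The members were also close to each other. The middle 50% of their log2 ratios spanned 0.34, while that of all measured genes spanned 1.09. The span was also narrow in 30 mitosis genes (0.39) and in 32 other replication factors (0.52), so it is not particular to the 40 genes. Among genes with at least 500 counts in both libraries, where counting error is small, the span was 0.27 for 32 members and 0.79 for 5936 genes, with medians of 0.83 and 0.17. In bulk RNA a larger share of cells in S phase and more transcript per cell cannot be told apart.

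**Figure D2:**
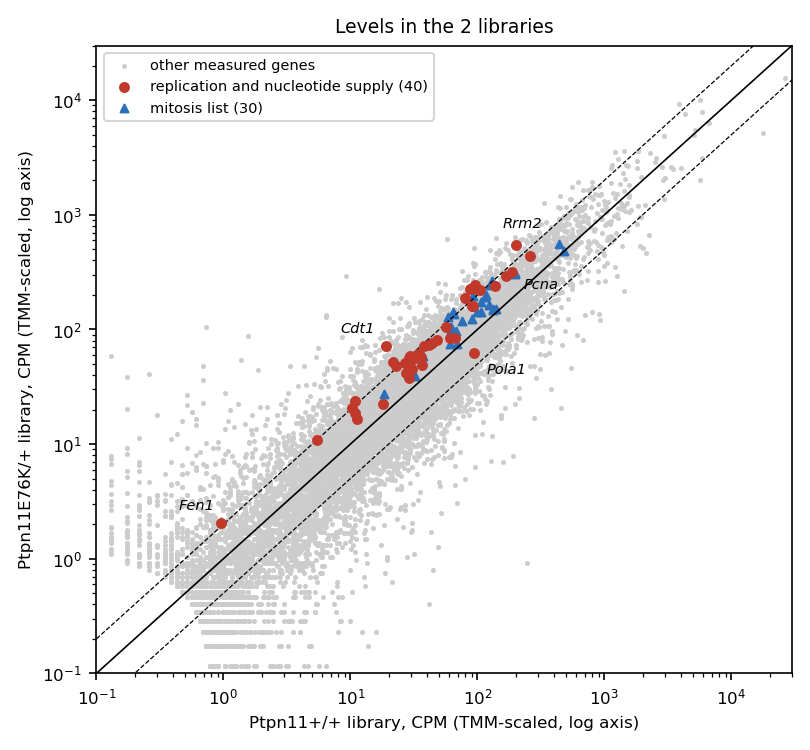
Level of each measured gene in the mutant library (vertical) against the control library (horizontal), in CPM on log axes, for genes detected in both. The 40 replication and nucleotide supply genes lie mostly between the line of no difference and the 2-fold line above it, and Pola1 lies below both.

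The 6 genes of the MCM2-7 helicase core were all above 1.7-fold, and 4 of them were called higher. Mcm5 had 4279 counts in the mutant library and 2217 in the control library, a ratio of 2.57 (2.44 to 2.70). Mcm3 had 3881 counts in the mutant and 2022 in the control, a ratio of 2.55 (2.42 to 2.70). These were the largest ratios in the ring, whose subunits form one hexamer. Mcm7 (3922 in mutant, 2300 in control) had a ratio of 2.27 (2.15 to 2.39), and Mcm2 (3877 in mutant, 2415 in control) one of 2.14 (2.03 to 2.25). Mcm2 was not called with total counts, upper-quartile factors, a 99% interval, without genes above 0.1% of counts in the totals or with length and GC trends removed, and Mcm7 was not called in the last pair of settings. Mcm4 (2771 in mutant, 2115 in control; ratio 1.74, 1.65 to 1.85) and Mcm6 (4162 in mutant, 3205 in control; ratio 1.73, 1.65 to 1.81) were not called, and their intervals did not overlap those of the other 4 subunits. With length and GC trends removed the gap narrowed, with Mcm4 at 1.785 and Mcm6 at 1.82. Mcm2 was then at 2.02, Mcm7 at 2.06, Mcm3 at 2.39 and Mcm5 at 2.41.

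Ratios of genes within a library do not depend on how the libraries are scaled, but trends with transcript length and GC content can shift them. The count ratio of Mcm5 to Mcm6 was 1.03 in the mutant library and 0.692 in the control library, a change of 1.49-fold (95% interval 1.39 to 1.59). That of Mcm3 to Mcm4 was 1.401 in the mutant and 0.956 in the control, a change of 1.465-fold (1.355 to 1.58). Intervals of such changes, here and below, use a normal approximation on the log scale. Per length of the longest annotated transcript, the 6 subunit genes spanned 44.4 to 76.2 CPM per kb in the mutant library, from Mcm4 to Mcm7, a range of 1.715-fold. In the control library they spanned 25.5 to 33.6 CPM per kb, with Mcm4 and Mcm3 lowest and Mcm7 highest, a range of 1.32-fold.

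**Figure D3:**
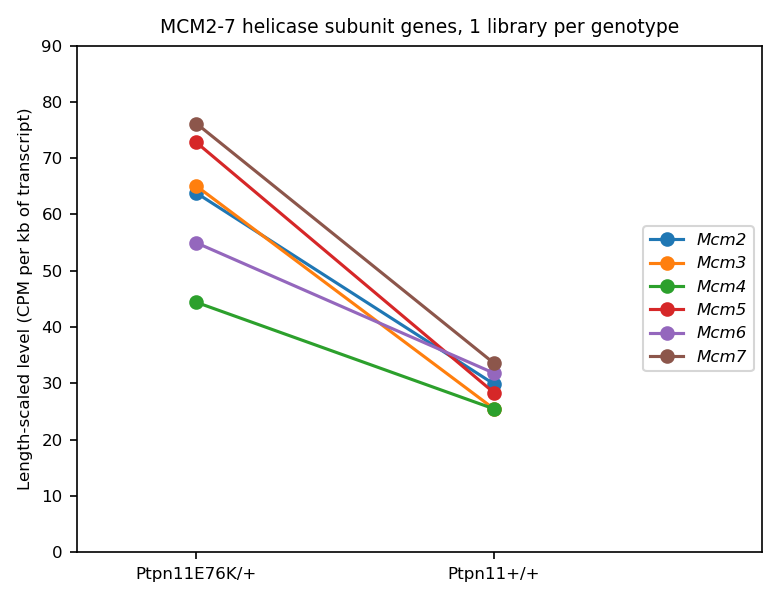
Length-scaled levels (CPM per kb of longest transcript) of the 6 MCM2-7 genes in the mutant library (left) and the control library (right), 1 library each. The genes lie between 25.5 and 33.6 in the control library and spread to 44.4 to 76.2 in the mutant library. Trends with length and GC content were not removed here.

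Of the factors that load the helicase, Cdt1 had the highest ratio of all 40 members. Cdt1 had 1260 counts in the mutant library and 444 in the control library, a ratio of 3.77 (3.39 to 4.22). Its partner Cdc6, an ATPase, had 833 counts in the mutant and 524 in the control (ratio 2.11, 1.89 to 2.36) and was not called, but was called with length and GC trends removed and under both looser thresholds. The ORC subunit gene Orc1 was sparse, with 190 counts in the mutant and 126 in the control (ratio 2.01, 1.59 to 2.53). Orc6 had 1056 counts in the mutant and 785 in the control (ratio 1.79, 1.63 to 1.965). Gmnn encodes geminin, the protein that binds and inhibits CDT1, and it is not among the 40. Gmnn had 710 counts in the mutant and 570 in the control, so the count ratio of Cdt1 to Gmnn was 1.77 in the mutant library and 0.779 in the control library, a change of 2.28-fold (1.95 to 2.66).

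Among the genes of helicase activation, Mcm10, whose protein helps to start unwinding, was called higher with 898 counts in the mutant library and 501 in the control library (ratio 2.38, 2.135 to 2.66), but not with total counts or without genes above 0.1% of counts in the totals. Cdc45 had 885 counts in the mutant and 623 in the control (ratio 1.89, 1.70 to 2.10). The 4 GINS genes, whose products form one complex, were not called and differed among themselves. Gins1 (361 in mutant, 240 in control) had a ratio of 2.001 (1.69 to 2.37), and Gins2 (965 in mutant, 715 in control) one of 1.80 (1.63 to 1.98). Gins3 (286 in mutant, 259 in control) had a ratio of 1.47 (1.24 to 1.74), and Gins4 (858 in mutant, 852 in control) one of 1.34 (1.22 to 1.47), so the interval of Gins4 did not overlap those of Gins1 and Gins2.

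Polymerase alpha-primase, which lays down the primers, was the complex in which the members parted. Its catalytic subunit gene Pola1 had 1083 counts in the mutant library and 2183 in the control library, and was 1.52-fold lower in the mutant (1.41 to 1.63), below the threshold for a call. The other subunits lay on the opposite side. Prim1, the catalytic primase subunit gene, had 1283 counts in the mutant and 955 in the control (ratio 1.79, 1.64 to 1.945). Prim2 (1009 in mutant, 836 in control) had a ratio of 1.61 (1.46 to 1.76), and Pola2 (783 in mutant, 703 in control) one of 1.48 (1.34 to 1.64). Within a library, the count ratio of Prim1 to Pola1 was 1.18 in the mutant and 0.437 in the control, a change of 2.71-fold (2.42 to 3.03). Pola1 stayed below 1 under all 6 other scalings or trend corrections tried, between 0.604 and 0.809, and the other 39 members stayed above 1.

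Pola1 is the only one of the 40 genes on the X chromosome. The median log2 ratio of the 431 measured X-linked genes was -1.15, against 0.03 for 12629 autosomal genes, and 45.9% of them were called lower, against 6.99% of autosomal genes. Set against that median, the log2 ratio of Pola1 (-0.60) was 0.55 higher, and 74.0% of measured X-linked genes had a lower ratio than Pola1. Xist, the RNA that silences one X chromosome in female cells, had 9051 counts in the mutant and 21878 in the control, 1.82-fold lower (1.77 to 1.86). The chromosome was looked at after the value of Pola1 was known, and its part in that value was not tested. Chromosome 15 also stood apart, with a median ratio of 1.48 over 501 genes, and holds none of the 40 members. Without chromosomes X and 15, 8 of 39 members (20.5%) were called higher and 0 lower, against 6.74% and 7.17% of 12210 genes.

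**Figure D4:**
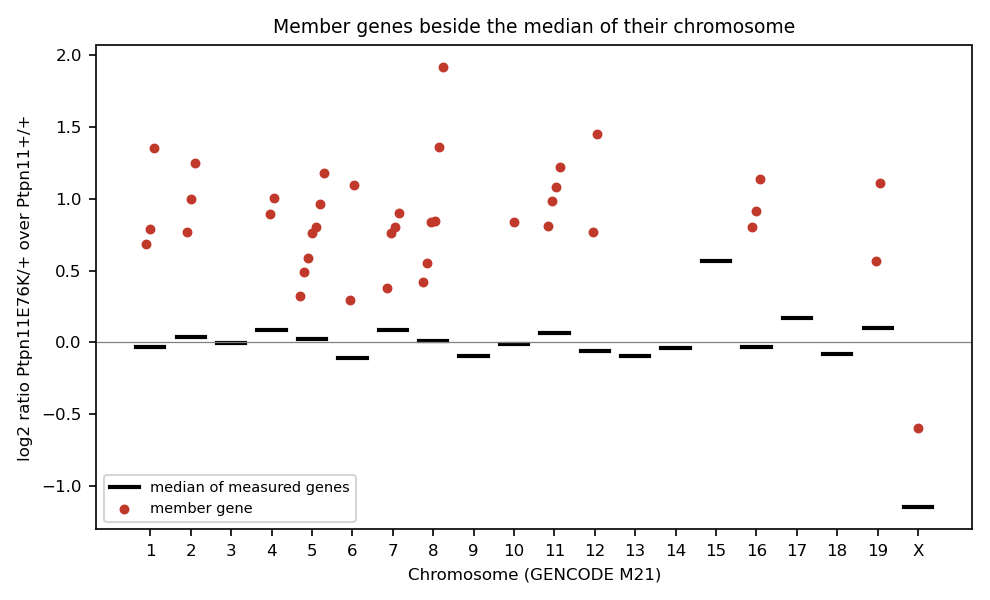
log2 ratio of each member gene (points) beside the median of all measured genes of its chromosome (bars). The 39 autosomal members lie above the median of their chromosome, chromosome 15 (median 0.56) holds no member, and Pola1 on X lies at -0.60 with the X median at -1.15.

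The genes of polymerases delta and epsilon were not called, with ratios from 1.30 to 1.98. Pold2 (1024 in mutant, 687 in control; 1.98, 1.80 to 2.19), an accessory subunit gene, and Pold1 (1830 in mutant, 1304 in control; 1.87, 1.74 to 2.01), which encodes the catalytic subunit of delta, lay at the upper end. Pold3, another accessory subunit gene, lay at the lower end with 652 counts in the mutant and 666 in the control (1.30, 1.17 to 1.45), and the intervals of Pold1 and Pold3 did not overlap. For epsilon, the catalytic subunit gene Pole (1479 in mutant, 1399 in control) had a ratio of 1.41 (1.31 to 1.51) and Pole2 (324 in mutant, 253 in control) one of 1.70 (1.44 to 2.02).

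The sliding clamp gene Pcna had 5502 counts in the mutant library and 4296 in the control library, a ratio of 1.70 (1.64 to 1.77). At 208 CPM per kb in the mutant and 122 CPM per kb in the control, Pcna and Rrm2 were the 2 members with the highest level per length in both libraries. The pseudogene Pcna-ps1 had 0 counts in both libraries, and Pcna-ps2 had 0 in the mutant and 2 in the control. The clamp loader has a large subunit, RFC1, and 4 small ones. Rfc1 had 1452 counts in the mutant and 1546 in the control (ratio 1.25, 1.16 to 1.34), the smallest ratio of the group. The small subunit genes had ratios of 2.20 for Rfc4 (414 in mutant, 250 in control; 1.88 to 2.59), 1.95 for Rfc5 (975 in mutant, 665 in control; 1.77 to 2.16), 1.75 for Rfc2 (1323 in mutant, 1007 in control; 1.61 to 1.899) and 1.503 for Rfc3 (722 in mutant, 639 in control; 1.35 to 1.67). The interval of Rfc1 lay below those of all 4, but only just below that of Rfc3. With length and GC trends removed Rfc1 and Rfc3 were closer, at 1.37 and 1.54.

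Lig1, the ligase gene that seals the fragments of the lagging strand, had 2804 counts in the mutant and 2132 in the control (ratio 1.75, 1.65 to 1.85). Fen1, which encodes the flap nuclease, had only 36 counts in the mutant and 22 in the control (ratio 2.18, 1.25 to 3.88). Fen1 shares exon positions with Tmem258 on the opposite strand (1271 counts in mutant, 1441 in control), and how the authors' counting treated reads in the overlap is not stated. Of the single-strand binding genes, Rpa1 (5117 in mutant, 3874 in control; 1.76, 1.68 to 1.83) and Rpa2 (1237 in mutant, 884 in control; 1.86, 1.71 to 2.03) were close. Rpa3 (387 in mutant, 420 in control; 1.23, 1.06 to 1.41) had the lowest ratio among the autosomal members. With length and GC trends removed Rpa3 was at 1.39, and Gins4 was then the lowest of them at 1.15.

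Nucleotide supply held 2 of the 8 calls. Rrm2, a small subunit gene of ribonucleotide reductase, had 9496 counts in the mutant library and 4616 in the control library, a ratio of 2.74 (2.64 to 2.84). Tk1, the S-phase thymidine kinase gene, had 3241 counts in the mutant and 1844 in the control, a ratio of 2.34 (2.21 to 2.48). The large reductase subunit gene Rrm1 (7676 in mutant, 6026 in control; 1.69, 1.64 to 1.75) and the thymidylate synthase gene Tyms (1404 in mutant, 1103 in control; 1.69, 1.56 to 1.83) were not called. The count ratio of Rrm2 to Rrm1 was 1.24 in the mutant library and 0.766 in the control library, a change of 1.615-fold (1.54 to 1.70). With length and GC trends removed the ratios of mutant to control were 2.60 for Rrm2 and 2.03 for Rrm1, closer together than 2.74 and 1.69.

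In a list of 19 other genes of deoxynucleotide metabolism and folate-linked carbon supply, 15 had ratios above 1, such as Dck (1.24) and Nt5m (1.26). Rrm2b, Tk2 and Samhd1 were among those below 1 and were not called, and Tk2 and Samhd1 were picked after values were seen. Rrm2b, the p53-inducible small subunit gene, had 303 counts in the mutant and 492 in the control, a ratio of 0.819 (0.708 to 0.947). The count ratio of Rrm2 to Rrm2b was 31.3 in the mutant library and 9.38 in the control library, a change of 3.34-fold (2.88 to 3.87). Tk2, the mitochondrial thymidine kinase gene, had 195 counts in the mutant and 416 in the control (ratio 0.624, 0.523 to 0.741), and Samhd1, whose enzyme breaks down deoxynucleotides, had 2960 in the mutant and 6074 in the control (ratio 0.648, 0.620 to 0.677).

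Of 32 other replication factors, 2 were called higher and 0 lower, with a median log2 ratio of 0.68. That is 6.25% called higher, near the 6.98% of all measured genes, and without chromosomes X and 15 it was 1 of 30. The calls were Recql4, a helicase gene (482 in mutant, 204 in control; 3.14, 2.66 to 3.72), which lies on chromosome 15, and Pold4, a small subunit gene of polymerase delta (1086 in mutant, 606 in control; 2.38, 2.16 to 2.64). Of the 19 other genes of deoxynucleotide metabolism and folate-linked carbon supply, 5 (26.3%) were called higher and 0 lower, against 6.98% and 8.29% of all measured genes. Their median log2 ratio was 0.998. Of the calls, 4 encode enzymes that load one-carbon units onto folate or convert them, namely Shmt1 (3.05, 2.62 to 3.55), Shmt2 (2.56, 2.44 to 2.69), Mthfd2 (2.48, 2.31 to 2.67) and Mthfd1 (2.42, 2.26 to 2.60), and the other was the nucleoside diphosphate kinase gene Nme1 (2.58, 2.31 to 2.89).

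Of 17 genes of de novo purine and pyrimidine synthesis, 5 (29.4%) were called higher and 2 lower, against 6.98% and 8.29% of all measured genes. Their median log2 ratio was 0.89. Adsl (3.15, 2.87 to 3.46), on chromosome 15, Umps (2.43, 2.25 to 2.62), Ppat (2.42, 2.19 to 2.68), which encodes the first committed enzyme of purine synthesis, Pfas (2.29, 2.11 to 2.48) and Atic (2.12, 2.01 to 2.24) were called higher. Both genes called lower, Ctps2 (532 in mutant, 1754 in control; 0.403, 0.365 to 0.445) and Prps2 (619 in mutant, 1992 in control; 0.413, 0.377 to 0.453), are X-linked. Without chromosomes X and 15, 4 of 13 were called higher and 0 lower.

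Among 30 mitosis genes 3 were called higher and 0 lower, against 6.98% and 8.29% of all measured genes. Their median log2 ratio was 0.60, with 0.84 for the replication genes. Birc5 (2.21, 2.07 to 2.36), Cdca8 (2.18, 2.03 to 2.33) and Ube2c (2.14, 2.02 to 2.26) were the calls. Mki67, the proliferation marker gene, had 8416 counts in the mutant and 11194 in the control (ratio 1.0001, 0.972 to 1.03), and Top2a had 9730 in the mutant and 10134 in the control (1.28, 1.24 to 1.31). The count ratio of Pcna to Mki67 was 0.654 in the mutant library and 0.384 in the control library, a change of 1.70-fold (1.62 to 1.79). The difference between the lists has no test with 1 library per genotype, and among the mitosis genes the log2 ratio varied with transcript length (r = -0.55 across 30 genes) and with GC content (r = 0.56). Among the 40 replication genes these correlations were -0.08 and 0.50, and the genes are not independent replicates. With both trends removed the median log2 ratios were 0.81 for the replication genes and 0.58 for the mitosis genes.

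Of 28 genes of G1 and the E2F network, 1 was called higher and 4 lower, against 6.98% and 8.29% of all measured genes. Their median log2 ratio was 0.21. E2f4 was called higher (1350 in mutant, 810 in control; 2.22, 2.03 to 2.42), while E2f1 was not called (1151 in mutant, 1164 in control; 1.32, 1.21 to 1.43). The genes called lower were the CDK inhibitor genes Cdkn2a (22 in mutant, 1130 in control) and Cdkn2b (98 in mutant, 481 in control), the pocket protein gene Rbl2 (305 in mutant, 1067 in control) and the cyclin gene Ccnd2 (5660 in mutant, 17273 in control), with ratios of 0.0259, 0.271, 0.380 and 0.436. The distributions of log2 ratios show the replication genes to the right of the mitosis genes and the G1 list close to all genes.

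**Figure D5:**
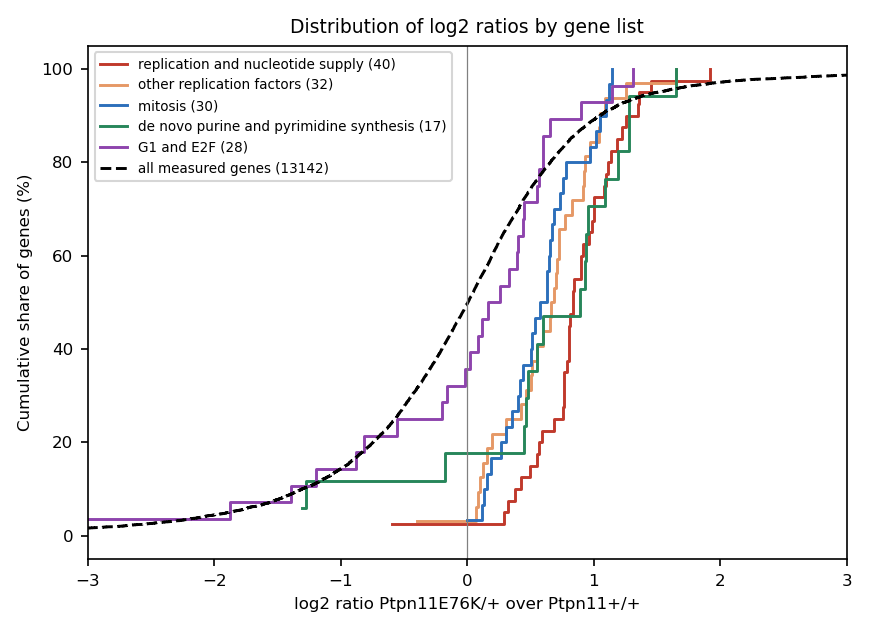
Cumulative share of genes by log2 ratio (mutant over control library) for the 40 replication and nucleotide supply genes, 4 other lists and all 13142 measured genes. The median is 0.84 for the replication genes, 0.60 for mitosis, 0.21 for G1 and E2F and 0.01 for all measured genes; values beyond -3 and 3 are not drawn.

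The sorted identity was checked on marker genes. The CD140 genes Pdgfra (1792 in mutant, 2073 in control) and Pdgfrb (3721 in mutant, 6075 in control) were not called. Ly6a, which encodes Sca-1, was called lower (612 in mutant, 2177 in control; 0.374, 0.341 to 0.409). Nes, which encodes nestin, was called higher (10785 in mutant, 5192 in control; 2.76, 2.67 to 2.86). Prrx1, a mesenchymal transcription factor gene, was called lower (1404 in mutant, 5135 in control; 0.364, 0.343 to 0.386). The collagen genes Col1a1 (173952 in mutant, 131912 in control; 1.75) and Col1a2 (62322 in mutant, 42729 in control; 1.94) and the vimentin gene Vim (110454 in mutant, 152954 in control; 0.961) were not called. Of the 8 stromal markers, 1 was therefore called higher and 2 lower, against 6.98% and 8.29% of all measured genes. The 10 general haematopoietic markers summed to 225 counts (12.9 CPM) in the mutant and 11 (0.476 CPM) in the control, with Ptprc at 12 in the mutant and 1 in the control, and 5 of the 10 at 0 in the control. The 10 monocyte and macrophage markers summed to 976 counts (56.1 CPM) in the mutant and 326 (14.1 CPM) in the control, with Lyz2 at 276 in the mutant and 11 in the control and 5 of the 10 at 0 in the control. Csf1r (229 in mutant, 149 in control; 2.04) and Cd68 (79 in mutant, 40 in control; 2.63) were not called, and Cd14 (237 in mutant, 121 in control; 2.61) was called higher. Of the measured markers, 4 of 5 haematopoietic and 5 of 7 monocyte and macrophage ones were called higher, beside 6.98% of all measured genes. Among these calls, Laptm5, Itgb2, Tyrobp, Ctss and C1qa had 0 counts in the control. They reached the minimum of 20 counts through the mutant library alone and could not have been called lower. The shares of markers called therefore cannot be compared with that of all genes. The 8 neutrophil markers lay the other way, with 1 count in the mutant and 15 in the control, of which Prtn3 had 1 in the mutant and 14 in the control and Ngp 0 in the mutant and 1 in the control. Mpo, Elane, S100a8, S100a9, Ltf and Camp were at 0 in each library, where 3 counts would be 0.173 CPM in the mutant and 0.130 CPM in the control. Markers of B and T cells, erythroid cells and endothelium summed to at most 28 counts each per library. Their part in the levels of the replication genes, which sum to 4701 CPM in the mutant and 2493 CPM in the control, was not tested. Ptpn11 itself had 5039 counts in the mutant and 5958 in the control (ratio 1.125, 1.08 to 1.17), and a gene count does not tell the alleles apart.

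With the 136 genes above 0.1% of counts left out of the totals, the median of all genes moved to -0.12, 5.52% of all measured genes were called higher and 1314 genes lower, against 6.98% and 1090 genes, and 5 members were called higher and 0 lower. These 5 were Cdt1, Rrm2, Mcm5, Mcm3 and Tk1, which were called under every setting tried.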

How the data were processed

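RNA of sorted bone marrow MSPC was sequenced from 1 Ptpn11E76K/+ and 1 Ptpn11+/+ library. The authors deposited raw read counts per Ensembl gene, which were not normalized. Per the submitters' processing notes, CASAVA, TopHat and edgeR were used with mm9. No source used here states the read counter, its strand setting or the annotation release, so reads of overlapping genes may have been split or dropped. Of 35275 identifiers, 34490 had a symbol in the supplied table. Transcript lengths and GC content came from the longest GENCODE M21 transcript, which is on another build, so the only coordinates given are those of the RefSeq promoters on GRCm38.p6. No sample column was left unused.

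The totals were 18010963 counts in the mutant and 22328659 in the control library. Totals were scaled by TMM factors of 0.9654 (mutant) and 1.0358 (control), computed with edgeR 4.0.16 under R 4.3.3. Levels per length are CPM of these scaled totals per kb of transcript; the plan had been to rescale them over measured genes, and CPM per kb was used so that ratios match those of the counts. Intervals were computed in SciPy 1.17.1 and the median log2 ratio used a prior count of 0.5 per library. Calls need at least 20 counts over both libraries and a 95% interval wholly beyond 2-fold. The alternatives changed the scaling (no factor, upper-quartile factors, size factors of DESeq2 1.42.0, or totals without genes above 0.1% of counts), removed length and GC trends by lowess, or changed the minimum count, the threshold, the interval's level or the prior count. TMM without chromosomes X and 15 was added after seeing the data. The code was run on simulated libraries with Poisson counts and known library totals, which does not bear on variation between animals or on scaling. Intervals and floors of 3 counts cover counting error only.

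The members and lists were chosen with earlier results of these data known. All 40 members are given with their counts. For the other lists the rule named Ptpn11, Mki67, Top2a, Rrm2b, markers with counts and up to 4 called genes per list. Markers with counts were named only in part, and the rest enter the sums. Calls beyond 4, Gmnn, Tk2, Samhd1, Dck, Nt5m, E2f1, Xist, the Pcna pseudogenes, neighbouring and overlapping genes, the within-library ratios, the set of deeply counted genes and the chromosomes were chosen after values were seen.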

Additional observations from a re-analysis of the deposited data

How the results depend on the processing

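The 40 genes kept a positive median and 0 calls lower under every alternative run. The median log2 ratio was 0.74 with total counts and 0.71 without genes above 0.1% of counts in the totals, against 0.84. The summed ratio was 1.76 with total counts, 1.85 with upper-quartile factors and 1.73 without the most abundant genes, against 1.886. The number called higher was 5 without the most abundant genes, 28 with a threshold of 1.5-fold and 13 when the ratio alone had to pass 2-fold, against 8. The shares of all measured genes called higher were 5.52%, 15.7% and 10.9% in these settings, against 6.98%. These shifts follow from the scaling or threshold itself. The other settings left between 6 and 8 members called higher. No paired analysis was possible because each genotype has 1 library, and no library could be left out for the same reason. Fen1, Orc1 and Gins3 had the fewest counts, so depth limits them most.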

Other observations

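Members with and without the promoter words had similar median ratios, which were not tested against each other. The median ratio was 1.87 for the 13 members with an E2F word and 1.83 for the 20 without one. It was 1.79 for the 21 with a CCAAT box and 1.91 for the 12 without. Cdt1, with the highest ratio, has 1 E2F word in its window and no CCAAT box, and Tk1, which was also called higher, has neither. Pola1, with the lowest ratio, has both.

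Protein-coding genes that start within 1000 bases of a member and run the other way were compared with that member. There were 6 such measured pairs, and none of the 6 neighbours was called. The neighbours had a median ratio of 1.11 and the members in these pairs one of 1.75. Prkdc, which encodes the catalytic subunit of a DNA repair kinase and starts 466 bases from Mcm4, had 260 counts in the mutant library and 689 in the control library (ratio 0.502, 0.434 to 0.580), against 1.74 for Mcm4. Abhd12 beside Gins1 had a ratio of 0.873 (0.807 to 0.945), against 2.001 for Gins1. Pxmp2 beside Pole went the other way, with 29 counts in the mutant and 9 in the control (ratio 4.29, 1.975 to 10.3), against 1.41 for Pole. Prpf38a, a splicing factor gene beside Orc1, lay close to its partner, with 1.835 (1.65 to 2.035) against 2.01.

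Chromosomes X and 15 differed from the others across their whole gene content. On X, 91.6% of 431 measured genes had a ratio below 1 and 0.696% were called higher. On chromosome 15, of 501 measured genes, 18.2% were called higher and 3.39% lower. The median ratio was 0.451 on X and 1.48 on chromosome 15, while the medians of the other 18 chromosomes lay between 0.925 and 1.12. The cause was not tested.

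Exons of 14 members overlap those of another annotated gene, among them 2 of the 8 called higher, Mcm7 and Tk1. Cops6, which overlaps Mcm7, had 2591 counts in the mutant and 2774 in the control, a ratio of 1.24. Ap4m1, also at Mcm7, had 161 in the mutant and 286 in the control, a ratio of 0.749. Afmid, which overlaps Tk1, had 42 in the mutant and 57 in the control, a ratio of 0.980.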
